A study of Rattus norvegicus with 28 samples.

Results

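The 7 genes described here take glucose into the cell, break it down to lactate and respond to low oxygen. They are Slc2a1 (ENSRNOG00000007284), Hk2 (ENSRNOG00000006116), Gapdh (ENSRNOG00000018630), Pgk1 (ENSRNOG00000058249), Pkm (ENSRNOG00000011329), Ldha (ENSRNOG00000013009) and Hif1a (ENSRNOG00000008292). They were chosen by name for their place in the pathway, with earlier results of these data known, as 7 of the 32545 gene rows of the table. All 7 passed the filter on low counts, as did 14282 rows in all. RNA sequencing had been run on 28 libraries labelled as rat neural progenitor cells, the dividing precursors of neurons and glia, in 7 groups of 4. Libraries called injured here are labelled as exposed to spinal cord injury, with a time of 2, 3 or 4 weeks. Libraries called uninjured are labelled as exposed to spinal cord for the same times, with no mention of injury. The last group was kept in culture. The study concerns stem cell transplantation after spinal cord injury in rodents. The labels do not give the rat strain or age, the event from which weeks are counted, whether cells were separated from cord tissue, or whether the 4 libraries of a group stem from different animals or cultures. The p-values therefore reflect the spread between these libraries alone, which may be technical. The labelled cell type could not be checked against its markers, because the table names genes by identifier only.

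Glycolysis starts when a transporter in the cell membrane lets glucose in and a hexokinase traps it by adding a phosphate. Enzymes further down split the sugar, harvest ATP and end in pyruvate, which lactate dehydrogenase can turn into lactate when oxygen is short or growth is fast. Hypoxia-inducible factor 1 alpha, the oxygen-sensitive protein made from Hif1a, binds a short DNA element in low oxygen and raises transcription of many of these genes; it is governed largely by protein breakdown, so the RNA level of Hif1a is not a measure of its activity. In neural tissue, proliferating progenitors are known for high glycolysis, and the glucose transporter of Slc2a1 is known for its abundance in the endothelium of the blood-brain barrier.

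The promoter sequences of 3 members that hold the core of the hypoxia response element, and of Hk2, which shared the direction of Slc2a1 at week 3 and has no core in this window, are shown because these genes moved in opposite directions in the comparisons that follow. Each is the stretch of 250 bases before the gene's start in RefSeq's table for the rat build GRCr8, read 5′ to 3′ on the gene's strand, with matches to the core in capitals. The cores searched were ACGTG and GCGTG on both strands, so that CACGC is GCGTG read on the other strand, and CACGTG counts as ACGTG on both.
Slc2a1, chr5:138002272-138002521, plus strand: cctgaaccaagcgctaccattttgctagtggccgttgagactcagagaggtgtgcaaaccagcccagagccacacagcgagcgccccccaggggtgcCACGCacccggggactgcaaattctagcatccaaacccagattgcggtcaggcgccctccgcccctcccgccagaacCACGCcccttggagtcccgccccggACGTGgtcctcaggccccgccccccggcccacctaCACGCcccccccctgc
Gapdh, chr4:159652468-159652717, minus strand: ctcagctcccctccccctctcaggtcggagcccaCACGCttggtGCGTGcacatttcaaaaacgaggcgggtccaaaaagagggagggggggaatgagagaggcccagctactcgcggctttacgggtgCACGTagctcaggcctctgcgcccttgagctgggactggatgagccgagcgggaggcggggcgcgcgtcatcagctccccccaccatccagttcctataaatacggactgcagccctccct
Ldha, chr1:106507842-106508091, plus strand: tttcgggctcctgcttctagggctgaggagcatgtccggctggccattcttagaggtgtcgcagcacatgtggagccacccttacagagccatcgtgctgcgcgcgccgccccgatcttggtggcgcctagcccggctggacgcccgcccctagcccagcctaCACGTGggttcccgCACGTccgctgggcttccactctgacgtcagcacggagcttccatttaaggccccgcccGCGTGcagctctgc
Hk2, chr4:116841276-116841525, minus strand: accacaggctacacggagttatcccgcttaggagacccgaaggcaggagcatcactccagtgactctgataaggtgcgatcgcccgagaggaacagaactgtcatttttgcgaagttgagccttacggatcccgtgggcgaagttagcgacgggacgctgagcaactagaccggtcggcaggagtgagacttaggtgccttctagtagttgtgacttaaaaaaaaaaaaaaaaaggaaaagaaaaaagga
Of the 7 members, 6 were in the table. Slc2a1 held 1 match to ACGTG and 3 to GCGTG, Gapdh held 1 and 2, and Ldha held 3 and 1. Hif1a held 3 matches to ACGTG and none to GCGTG, and neither core was found in the windows of Hk2 and Pkm. Among all 33469 promoters of that table, 16.6% held ACGTG, 25.9% held GCGTG and 36.7% held either in the same length. Slc2a1 and Ldha, which both hold the core, went in opposite directions with injury at weeks 3 and 4. A match of letters is a description of the window only.

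Depth divided the libraries by week. The 8 week 2 libraries held 84532 to 446331 counts and the other 20 held 2605188 to 6908508. Member counts in week 2 libraries were correspondingly low, with a highest count of 209 for Slc2a1 and 0 counts for Pgk1 in injured week 2 replicate 1. Injured week 3 replicate 3 listed 0 counts for Slc2a1, Pgk1, Pkm and Hif1a, beside 167 counts for Hk2, 1456 for Ldha and 2526 for Gapdh. It had counts for 11544 genes, where the other libraries of its group, at similar totals, had counts for 15292 to 15583. Its zeros were taken as missing values and the library was left out of the tests, which used the other 27, so that injured week 3 has n = 3. Levels are given as CPM, counts scaled to a fixed total over the tested genes, after TMM scaling of library sizes, and they compare a gene between libraries, not genes with each other, since gene lengths were not used. Log2 fold changes come from edgeR's quasi-likelihood test fitted across all 14282 genes, with standard errors (SE) and Benjamini-Hochberg adjusted p-values, and the threshold for a call was an adjusted p of 0.05. With RNA from whole samples, fewer cells of a type and less RNA per cell cannot be told apart, nor can RNA from surrounding cord be told apart from that of the labelled cells.

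**Figure D1:**
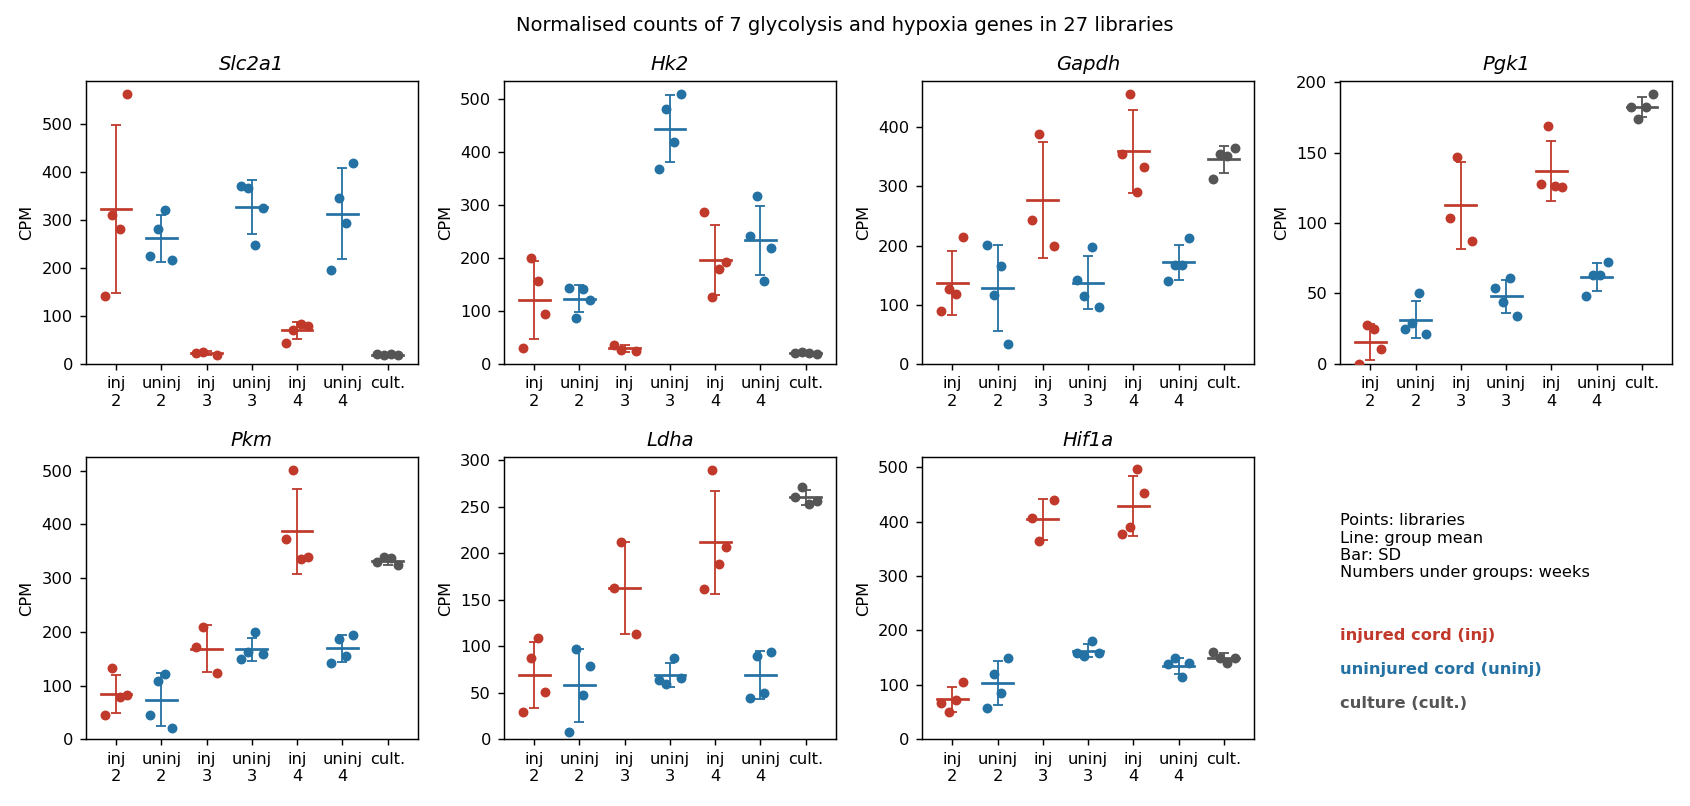
Level of each of the 7 genes in CPM (linear axes from 0) by group and week, with a point for each of 27 libraries, a line at the group mean and bars of 1 SD. Slc2a1 and Hk2 are low in culture and in injured week 3, where Gapdh, Pgk1 and Ldha are high.

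The 7 members did not move together with injury. At week 3, Slc2a1 was 15.3-fold and Hk2 15.4-fold lower in injured than in uninjured libraries, while Gapdh, Pgk1, Ldha and Hif1a were 2.02 to 2.47-fold higher. At week 4, Hk2 did not pass the test, Slc2a1 was 4.51-fold lower, and Gapdh, Pgk1, Pkm, Ldha and Hif1a were 2.09 to 3.17-fold higher. At week 3, 6 of 7 members passed the test, 4 higher and 2 lower in injured libraries, beside 46% of all genes tested (20.7% higher, 25.3% lower). The count at week 4 was also 6 of 7, with 5 higher and 1 lower in injured libraries, beside 27.3% of all genes (12.1% higher, 15.2% lower). Higher genes made 45% of all calls at week 3 with TMM, 55.6% with RLE factors and 58.1% by DESeq2, and at week 4 they made 44.2% with TMM and 32.2% with unscaled totals. The median log2 fold change over the 7 members was 1.01 at week 3 and 1.15 at week 4, against 0.0070 and 0.0071 over all genes tested.

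**Figure D2:**
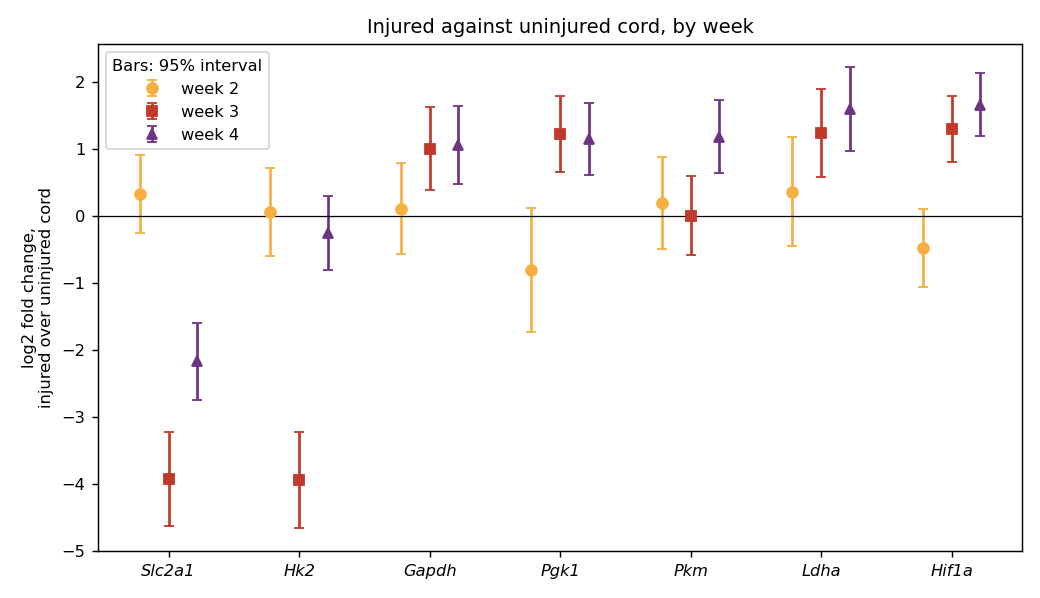
Log2 fold change of injured over uninjured libraries for each gene at weeks 2, 3 and 4, with 95% intervals from the edgeR fit. Slc2a1 lies at -3.93 at week 3 and -2.17 at week 4, Hk2 at -3.94 and -0.25, and Hif1a at 1.31 and 1.66. At week 2 each of the 7 intervals includes 0.

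Slc2a1 encodes the glucose transporter GLUT1, through which glucose enters the cell. At week 3 its level was 21.4, 25.4 and 17.2 CPM in injured libraries, against 369.4, 365.8, 247.4 and 324.4 CPM in uninjured libraries. At week 4 it was 43.6, 71.0, 83.6 and 79.3 CPM in injured libraries, against 194.8, 344.8, 293.9 and 418.4 CPM in uninjured libraries. In culture it was 19.5, 17.4, 21.2 and 17.8 CPM. The highest injured library of either week lay below the lowest uninjured library of that week, and the injured week 3 libraries overlapped those of culture. The log2 fold change with injury was -3.93 at week 3 (SE 0.35, edgeR adjusted p = 7.6e-13), and -2.17 at week 4 (SE 0.28, edgeR adjusted p = 3.75e-08). Within the injured groups Slc2a1 was 3.25-fold higher at week 4 than at week 3 (log2 fold change 1.70, edgeR adjusted p = 5.82e-05). Between uninjured week 4 and week 3 the log2 difference was -0.06, with a 95% interval of -0.60 to 0.48.

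Hk2 encodes hexokinase 2, the inducible enzyme that traps glucose inside the cell. At week 3 its level was 35.5, 26.6 and 24.4 CPM in injured libraries, against 367.3, 482.0, 419.1 and 509.7 CPM in uninjured libraries. The library left out of the tests had 25.6 CPM. Its scaling factor of 1.81 came from scaling all 28 libraries together, with its zeros included. The tested libraries of its group had factors of 1.02 to 1.05, so its place relative to their range depends on that factor. At week 4 Hk2 was at 287.0, 126.1, 179.2 and 191.7 CPM in injured libraries, against 240.5, 316.4, 157.1 and 218.0 CPM in uninjured libraries. The groups stood apart at week 3 and overlapped at week 4. In culture Hk2 was at 20.7, 22.8, 19.9 and 18.3 CPM, below every exposed library. Hk2 had a log2 fold change with injury of -3.94 at week 3 (SE 0.36, edgeR adjusted p = 1.11e-12), and of -0.25 at week 4 (SE 0.28, edgeR adjusted p = 0.561, 95% interval -0.81 to 0.31).

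Hk2 had the largest difference between the injury effects of weeks 4 and 3 among the 7 members, 3.69 on the log2 scale (SE 0.43, edgeR adjusted p = 1.09e-08). In injured libraries Hk2 was 6.79-fold higher at week 4 than at week 3 (log2 fold change 2.76, edgeR adjusted p = 1.36e-08). In uninjured libraries its level averaged 233.0 ± 65.8 CPM at week 4 and 444.5 ± 63.9 CPM at week 3 (SD, n = 4 each), a log2 difference of -0.93 that missed the threshold (edgeR adjusted p = 0.106), although these libraries did not overlap. DESeq2, with a log2 difference of -0.85, and limma voom, with -0.90, did call that difference, at adjusted p = 0.0197 and 0.0143. Slc2a1 and Pkm also had injury effects that differed between weeks 4 and 3, by 1.76 (edgeR adjusted p = 0.00137) and 1.18 (edgeR adjusted p = 0.0314), so that 3 of 7 members did, beside 18.7% of all genes and 11.5% in that direction. With all 28 libraries in the fit only Hk2 of these 3 was called. Pkm also lost its call with RLE factors (0.94, edgeR adjusted p = 0.0807), unscaled totals (0.85, edgeR adjusted p = 0.101) and no filter on low counts (0.97, edgeR adjusted p = 0.11). Upward differences made 61.2% of all calls here, 49.2% with RLE factors, 46.1% with unscaled totals and 42% by DESeq2.

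Gapdh encodes glyceraldehyde-3-phosphate dehydrogenase, which oxidises the split sugar and is often used as a reference gene. Gapdh at week 3 was at 243.4, 388.0 and 199.5 CPM in injured libraries, against 141.0, 113.8, 198.0 and 96.7 CPM in uninjured libraries. A week later it was at 355.0, 457.2, 291.3 and 333.5 CPM in injured libraries, against 139.8, 166.7, 167.7 and 212.3 CPM in uninjured libraries. The lowest injured library at week 3, with 199.5 CPM, was barely above the highest uninjured library, with 198.0 CPM, while the week 4 groups stood clearly apart. Gapdh thus differed by 1.01 on the log2 scale at week 3 (SE 0.31, edgeR adjusted p = 0.00606) and by 1.06 a week later (SE 0.29, edgeR adjusted p = 0.00401).

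Pgk1 encodes phosphoglycerate kinase 1, the first ATP-yielding step of the pathway. The week 3 level of Pgk1 was 103.3, 146.7 and 87.2 CPM in injured libraries, against 53.8, 43.8, 60.8 and 33.96 CPM in uninjured libraries. The week 4 level was 127.9, 168.7, 126.1 and 125.3 CPM in injured libraries, against 47.9, 63.1, 62.9 and 72.5 CPM in uninjured libraries. Neither week showed overlap between the groups. Pgk1 had log2 fold changes of 1.22 at week 3 (SE 0.28, edgeR adjusted p = 0.000352) and 1.15 a week later (SE 0.26, edgeR adjusted p = 0.000655).

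Pkm encodes the muscle-type pyruvate kinase, which makes pyruvate and a further ATP. Its row holds all transcripts of the gene, so the isoforms made by alternative splicing were not separated. Pkm at week 3 was at 172.8, 209.9 and 124.04 CPM in injured libraries, against 150.5, 162.4, 199.2 and 159.4 CPM in uninjured libraries. A week later Pkm was at 372.5, 501.9, 334.8 and 339.1 CPM in injured libraries, against 141.4, 186.4, 155.6 and 194.2 CPM in uninjured libraries. The groups overlapped fully at week 3 and not at all at week 4. The log2 difference at week 3 was 0.0096 (SE 0.29, edgeR adjusted p = 0.985, 95% interval -0.58 to 0.60), against 1.19 at week 4 (SE 0.27, edgeR adjusted p = 0.000643). Within injured libraries Pkm was 2.29-fold higher at week 4 than at week 3 (log2 fold change 1.20, edgeR adjusted p = 0.00226). That call was lost without injured week 3 replicate 4, the lowest of its group, where the log2 difference was 0.82 (edgeR adjusted p = 0.0932). It was also lost with all 28 libraries (1.44, edgeR adjusted p = 0.208). The difference between the injury effects of weeks 4 and 3 was lost in 15 of 27 fits that each left out a library.

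Ldha encodes the lactate dehydrogenase subunit that predominates in muscle and in glycolytic cells. At week 3 Ldha was at 162.9, 212.2 and 113.5 CPM in injured libraries, against 63.7, 59.5, 87.4 and 65.6 CPM in uninjured libraries. Ldha at week 4 was at 162.0, 289.6, 188.2 and 206.4 CPM in injured libraries, against 44.3, 89.3, 49.7 and 94.0 CPM in uninjured libraries. Every injured library lay above every uninjured library in both weeks. The library left out of the tests, with 222.8 CPM for Ldha and 386.5 CPM for Gapdh, also lay above all uninjured week 3 libraries. These values rest on the separate scaling factor of that library, which had counts for fewer genes than the rest of its group. Ldha had a log2 fold change of 1.24 at week 3 (SE 0.33, edgeR adjusted p = 0.0016), then 1.60 at week 4 (SE 0.31, edgeR adjusted p = 6.45e-05). Gapdh, Pgk1, Pkm and Ldha all have near-identical copies or pseudogenes in mammalian genomes, and how shared reads were counted is not stated, so their counts are uncertain to that extent.

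Hif1a encodes the oxygen-regulated subunit of hypoxia-inducible factor 1. At week 3 its level was 406.9, 365.1 and 439.1 CPM in injured libraries, against 159.1, 153.7, 181.5 and 158.5 CPM in uninjured libraries. Week 4 values were 376.8, 390.7, 496.6 and 451.5 CPM in injured libraries, against 137.5, 149.5, 113.8 and 139.8 CPM in uninjured libraries. The lowest injured library of either week lay well above the highest uninjured library of that week. Its log2 fold change with injury was 1.31 at week 3 (SE 0.24, edgeR adjusted p = 1.71e-05), then 1.66 at week 4 (SE 0.23, edgeR adjusted p = 1.81e-07).

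Of the 4 members listed at 0 in injured week 3 replicate 3, Pgk1, Pkm and Hif1a had injury calls that rest on how that library is treated, and Slc2a1 did not. With all 28 libraries in the fit, the log2 fold change of Hif1a with injury was 1.05 at week 3 (edgeR adjusted p = 0.281), then 1.64 at week 4 (edgeR adjusted p = 0.148). That of Pgk1 was 0.97 at week 3 (edgeR adjusted p = 0.303), then 1.13 at week 4 (edgeR adjusted p = 0.341), while Pkm had 1.17 at week 4 (edgeR adjusted p = 0.333). Slc2a1, Gapdh and Ldha were called in both weeks with the library in, as was Hk2 at week 3.

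At week 2 none of the 7 members passed the test for injury. Slc2a1 was at 141.2, 309.4, 280.3 and 561.9 CPM in injured libraries, against 225.5, 281.6, 320.3 and 217.1 CPM in uninjured libraries. Hk2 was at 29.7, 199.6, 156.7 and 94.1 CPM in injured libraries, against 143.5, 86.7, 141.0 and 121.1 CPM in uninjured libraries. Both genes spread more widely among injured than among uninjured libraries, and the groups overlapped for all 7 members, where 2% of all genes showed no overlap. For Hif1a the week 2 means were 73.4 ± 23.0 CPM with injury and 103.2 ± 40.3 CPM without it (SD, n = 4 each). Pgk1 was at 27.4, 24.7 and 10.8 CPM in 3 injured libraries and had 0 counts in the fourth, where a count of 0 allows up to 22.3 CPM (3 counts). In uninjured libraries Pgk1 was at 24.6, 28.9, 50.2 and 20.9 CPM. edgeR called 0 of 7 members at week 2, beside 3.37% of all genes, and no member had an unadjusted p under 0.05, the lowest being 0.0847. DESeq2 also called 0. The log2 differences ran from -0.81 for Pgk1 to 0.37 for Ldha, and the 95% interval of Slc2a1, -0.25 to 0.92, does not reach its fold change of week 3. The median over the members was 0.11, against -0.05 over all genes.

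The injury effects of weeks 3 and 4 were also set against that of week 2. Between weeks 3 and 2 the effect differed for 4 of 7 members, beside 30.4% of all genes (12.7% upward, 17.7% downward): Slc2a1 by -4.27 (edgeR adjusted p = 2.14e-10), Hk2 by -4.00 (3.7e-09), Pgk1 by 2.03 (0.00303) and Hif1a by 1.78 (0.000262). Between weeks 4 and 2 it differed for 3 of 7, beside 17.3% of all genes (7.85% upward, 9.47% downward), namely Slc2a1 by -2.51 (edgeR adjusted p = 8.73e-06), Pgk1 by 1.96 (0.00676) and Hif1a by 2.14 (3.04e-05). The call of Pgk1 between weeks 4 and 2 was lost without uninjured week 2 replicate 3 (log2 difference 1.56, edgeR adjusted p = 0.0599) and with only the groups compared (1.92, edgeR adjusted p = 0.055). Without uninjured week 2 replicate 4, Gapdh and Pkm were called as well. DESeq2 also called Gapdh between weeks 3 and 2 (1.14, adjusted p = 0.0491) and Ldha between weeks 4 and 2 (1.31, adjusted p = 0.0447). With all 28 libraries Pgk1 and Hif1a lost their calls in both differences. That left 2 of 7 members called between weeks 3 and 2, and 1 of 7 between weeks 4 and 2. Upward differences made 41.9% of all calls between weeks 3 and 2, and 54.5% by DESeq2, and between weeks 4 and 2 they made 45.3%, and 29.5% with unscaled totals. Week 2 and low depth coincide, so they cannot be told apart in these differences.

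Against culture, the uninjured groups had more of both genes of glucose entry and less of the later steps. In all 3 weeks Slc2a1 and Hk2 were higher and Gapdh, Pgk1, Pkm and Ldha lower in uninjured libraries than in culture, while Hif1a passed the test in none. That made 6 of 7 members called at each week, beside 42.1% of all genes at week 2, 49.9% at week 3 and 46.3% at week 4. Of all genes, 20% were higher and 22.1% lower than in culture at week 2, 26% and 23.9% at week 3, and 26.3% and 20% at week 4. Higher genes made 52.1% of all calls at week 3, and 41.8% by DESeq2. The log2 fold change of Slc2a1 was 3.79, 4.10 and 4.04 at weeks 2, 3 and 4, and that of Hk2 was 2.60, 4.44 and 3.51, each with an edgeR adjusted p of at most 1.19e-08. Ldha averaged 69.3 ± 25.9 CPM in uninjured week 4 libraries and 260.0 ± 8.13 CPM in culture (SD, n = 4 each), or -1.90 on the log2 scale (SE 0.31, edgeR adjusted p = 1.83e-06). Pgk1 averaged 61.6 ± 10.2 CPM in uninjured week 4 libraries and 182.5 ± 7.17 CPM in culture, with a log2 fold change of -1.57 (SE 0.27, edgeR adjusted p = 3.38e-06). Gapdh and Pkm had smaller differences at week 4, of -1.01 (edgeR adjusted p = 0.00353) and -0.97 (edgeR adjusted p = 0.00288). The 4 culture libraries were close to each other, with Hif1a at 159.6, 150.3, 140.3 and 149.2 CPM there, overlapping the uninjured libraries of each week. Its difference from culture gave edgeR adjusted p-values of 0.081, 0.684 and 0.626 at weeks 2, 3 and 4. Without uninjured week 2 replicate 4 Hif1a was called lower at week 2 (-0.74, edgeR adjusted p = 0.0221), as it was without injured week 3 replicate 2 or 4, and DESeq2 called it lower at week 4 (-0.28, adjusted p = 0.0382). With all 28 libraries Pkm lost its call at weeks 3 and 4 and Pgk1 at week 4.

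**Figure D3:**
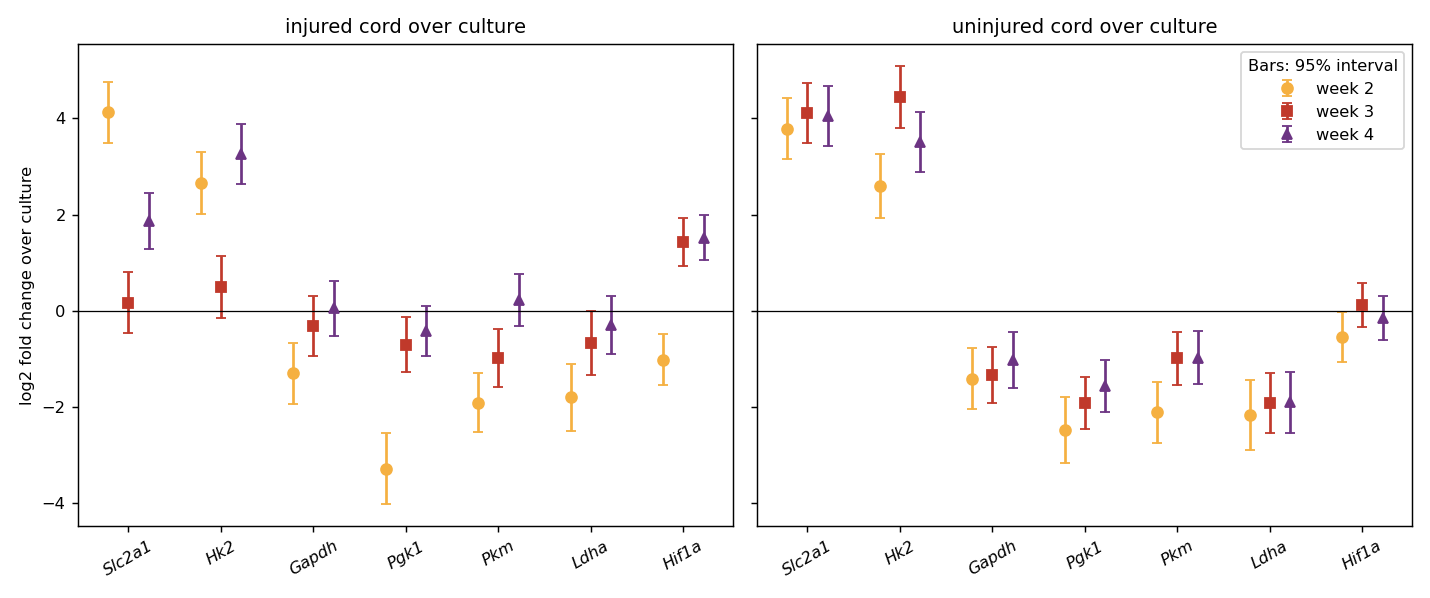
Log2 fold change of each exposed group over culture for the 7 genes, with 95% intervals from the edgeR fit. Slc2a1 lies near 4 in all 3 uninjured groups and in injured week 2, at 0.17 in injured week 3 and at 1.87 in injured week 4. All comparisons share the same 4 culture libraries.

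The injured groups stood in another relation to culture at each week. At week 2 all 7 members passed the test, 2 higher and 5 lower in injured libraries, beside 45% of all genes (19.3% higher, 25.7% lower). Higher genes made 42.9% of those calls, and 53.1% with unscaled totals. This was the only week at which Hif1a was lower than in culture in injured libraries (log2 fold change -1.02, edgeR adjusted p = 0.00156). At week 3 only 2 of 7 passed, beside 19.2% of all genes (9.19% higher, 10% lower): Hif1a was higher (log2 fold change 1.43, edgeR adjusted p = 1.44e-05) and Pkm lower (-0.98, edgeR adjusted p = 0.0146) in injured libraries. Slc2a1 then differed from culture by 0.17 with a 95% interval of -0.46 to 0.80, and Hk2 by 0.50 with an interval of -0.14 to 1.14. The week 3 count was 1 without injured week 3 replicate 4, where Pkm was at -0.81 (edgeR adjusted p = 0.11), 0 with all 28 libraries, 4 by limma voom, 4 without the week 2 libraries and 5 when only these 2 groups were fitted. At week 4, 3 of 7 were higher in injured libraries than in culture, beside 33.6% of all genes (18.1% higher): Slc2a1 by 1.87 (edgeR adjusted p = 7.63e-07), Hk2 by 3.26 (3.59e-12) and Hif1a by 1.52 (6.23e-07). Higher genes made 53.9% of all calls in this comparison, and 40.6% with unscaled totals. Pgk1 was not called (-0.41, edgeR adjusted p = 0.234), although its injured libraries all lay below those of culture, and it was called lower in 4 of 9 alternatives, with unscaled totals (-0.68, edgeR adjusted p = 0.0307), by DESeq2 (-0.53, adjusted p = 0.038), without the week 2 libraries (-0.42, edgeR adjusted p = 0.0479) and with only the groups compared (-0.40, edgeR adjusted p = 0.019). Gapdh then averaged 359.2 ± 70.5 CPM in injured week 4 libraries and 345.9 ± 22.9 CPM in culture (SD, n = 4 each), a log2 difference of 0.05 with a 95% interval of -0.52 to 0.63. With all 28 libraries Hif1a was called in none of the injured groups against culture, with edgeR adjusted p = 0.328, 0.484 and 0.226 at weeks 2, 3 and 4.

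Steps between weeks were compared within each exposure. In injured libraries all 7 members differed between weeks 3 and 2, beside 44.7% of all genes (24.7% higher, 20% lower), with Slc2a1 (log2 fold change -3.95) and Hk2 (-2.16) lower and the other 5 higher at week 3. Hif1a was at 403.7 ± 37.1 CPM at week 3 (SD, n = 3), against 73.4 ± 23.0 CPM at week 2 (n = 4), a log2 fold change of 2.45 (edgeR adjusted p = 1.34e-09). Its week 2 level rests on 9 to 39 counts in an injured library. Week 2 and low depth coincide, so they cannot be told apart in the steps from week 2. Without injured week 2 replicate 1 the number of members called was 4, with Gapdh, Pkm and Ldha lost. Gapdh also lost its call without injured week 3 replicate 2 (0.77, edgeR adjusted p = 0.0837), and Pkm without injured week 3 replicate 1 (0.76, edgeR adjusted p = 0.0885) or uninjured week 3 replicate 2 (0.77, edgeR adjusted p = 0.054). Between weeks 4 and 3 of injury, 3 of 7 rose, beside 21.6% of all genes (13.8% higher), namely Slc2a1, Hk2 and Pkm. Pkm lost that call with all 28 libraries and without injured week 3 replicate 4. Higher genes made 63.9% of all calls in that step, 52.1% with RLE factors, 41.1% with unscaled totals and 44.5% by DESeq2. In uninjured libraries 2 of 7 were higher at week 3 than at week 2, beside 20.3% of all genes (12.2% higher), Hk2 by 1.85 (edgeR adjusted p = 4.72e-05) and Pkm by 1.12 (edgeR adjusted p = 0.00913). Pkm lost that call without uninjured week 2 replicate 1 (0.82, edgeR adjusted p = 0.0809) or 4 (0.66, edgeR adjusted p = 0.123), and without uninjured week 3 replicate 3 (0.84, edgeR adjusted p = 0.0677). It was also lost with RLE factors (0.72, edgeR adjusted p = 0.103), by DESeq2 (0.72, adjusted p = 0.0525), with only the groups compared (0.80, edgeR adjusted p = 0.26) and with all 28 libraries (0.98, edgeR adjusted p = 0.475). That background depends on scaling, since higher genes made 60% of all calls with TMM, 47.5% with unscaled totals, 27.4% with RLE factors and 30% by DESeq2, and RLE factors moved the median over all genes by -0.41. Between uninjured weeks 4 and 3, edgeR called 0 of 7 members, beside 0.525% of all genes, with 1 member, Hk2, at an unadjusted p under 0.05, and DESeq2 and limma voom called 1 of 7, again Hk2. Over the whole set of 7 groups, all 7 members differed, beside 74.9% of all genes. With all 28 libraries 5 did, with Pkm and Hif1a not called.

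The balance between entry and later steps can be given for each library as the share of Slc2a1 and Hk2 in the summed counts of the 6 glycolysis genes. It is a share of counts, in which longer transcripts weigh more, and the grouping was made with the values known, so it is given without a test. The share was 7.69%, 5.15% and 7.36% in injured week 3 libraries, against 64.3%, 69.1%, 55.0% and 70.1% in uninjured week 3 libraries. At week 4 it was 24.5%, 12.2%, 21.8% and 21.3% in injured libraries, against 53.8%, 56.7%, 50.9% and 52.6% in uninjured libraries. Culture had the lowest share, at 3.40% ± 0.22 (SD, n = 4), and at week 2 it was 57.6% ± 5.50 in injured and 57.8% ± 7.57 in uninjured libraries (SD, n = 4 each). Injured week 4 thus lay between injured week 3 and the uninjured groups, with no overlap on either side. The shallowest library, injured week 2 replicate 1, had a share of 51.1%, from 23 counts of the entry genes and 22 of the other 4, with a Wilson 95% interval of 37.0% to 65.0% that covers counting error only.

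**Figure D4:**
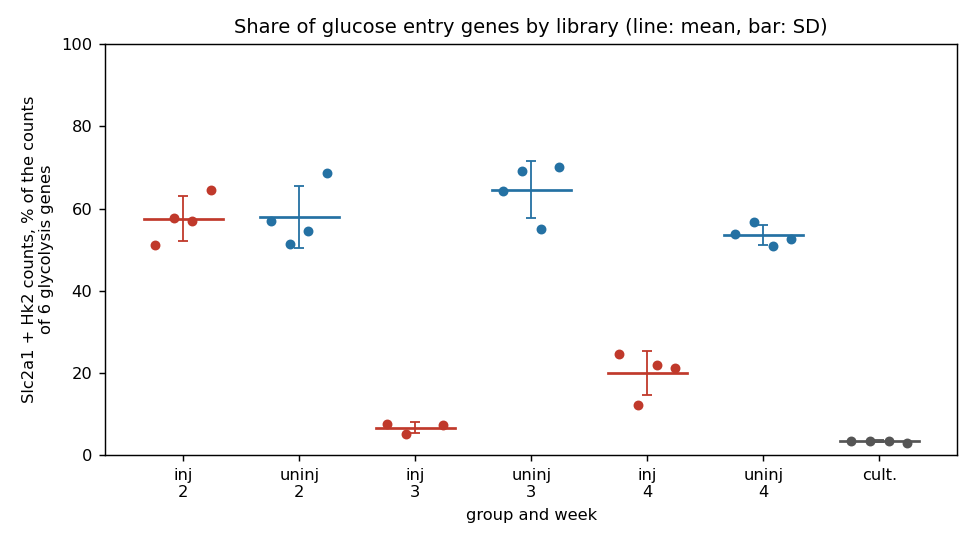
Share of Slc2a1 and Hk2 in the counts of the 6 glycolysis genes, in percent, by group and week, with a point for each library, a line at the group mean and bars of 1 SD. Injured week 3 libraries lie at 5.15% to 7.69% and injured week 4 libraries at 12.2% to 24.5%, while all uninjured libraries lie at 50.9% or more.

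Within groups, the later genes often peaked in the same library. Gapdh, Pgk1, Pkm and Ldha all had their highest level in a single shared library in 4 of 7 groups, the injured and uninjured groups of weeks 3 and 4, and in both week 2 groups and culture they did not. In injured week 3 this was replicate 2, which had the highest Slc2a1 level of its group, 25.4 CPM, and the lowest entry share, 5.15%. In uninjured week 3 it was replicate 3, with the lowest Slc2a1 level, 247.4 CPM, and the lowest share, 55.0%. Injured week 4 replicate 2 had the lowest Hk2 level, 126.1 CPM, and the lowest share, 12.2%. Uninjured week 4 replicate 4 had the highest Slc2a1 level, 418.4 CPM, and a share of 52.6% that was not the lowest of its group. The level of the entry genes in the shared library thus had no common direction. Across the 27 libraries the Pearson correlation of log2 CPM was 0.78 between Slc2a1 and Hk2 and 0.58 to 0.83 among Gapdh, Pgk1, Pkm and Ldha. Against those 4 genes Slc2a1 gave -0.68 to -0.50 and Hk2 gave -0.41 to -0.09. Without the week 2 libraries, Hk2 gave -0.77 to -0.30 against them and Slc2a1 gave -0.84 to -0.47. The correlation between Slc2a1 and Hk2 was then 0.90, and those among the 4 genes were 0.81 to 0.96. The libraries share groups and depth, so all these values are descriptions only. Over the same 27 libraries and 6815 well-expressed genes, the gene most like Hk2 was ENSRNOG00000004444 (r = 0.98) and the gene most like Pgk1 was ENSRNOG00000018233 (r = 0.97), neither of which has a symbol in the files.

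**Figure D5:**
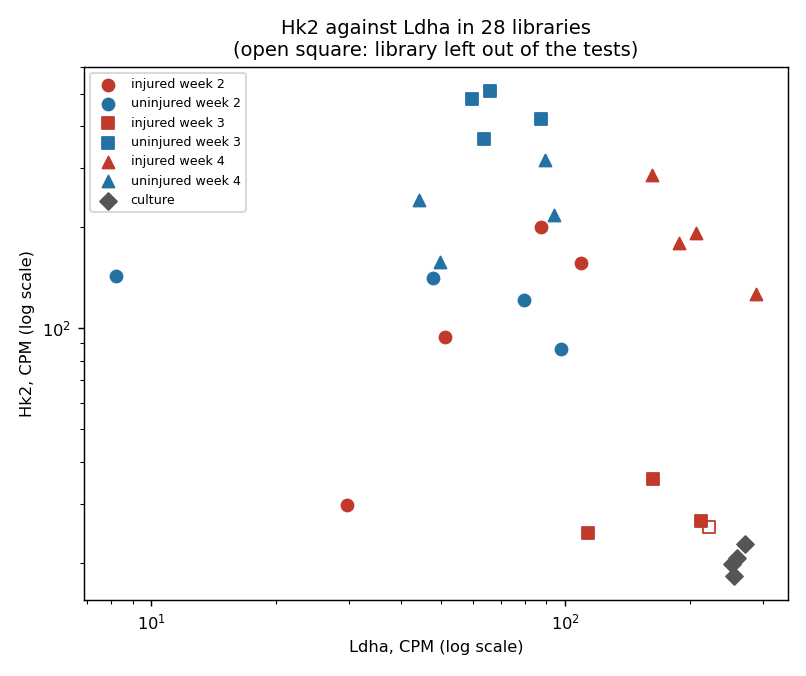
Hk2 level against Ldha level in CPM, both on log axes, with a point for each of the 28 libraries and an open square for the library left out of the tests. Culture and injured week 3 lie at low Hk2 and high Ldha, uninjured weeks 3 and 4 at high Hk2 and low Ldha, and injured week 4 at high values of both.

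The order of the groups differed between the genes. For Slc2a1 the means of uninjured week 3 (326.7 CPM), injured week 2 (323.2 CPM), uninjured week 4 (313.0 CPM) and uninjured week 2 (261.1 CPM) overlapped in their libraries. Injured week 4 (69.4 CPM) followed with a clear gap, then injured week 3 (21.3 CPM) and culture (18.97 CPM), which overlapped. For Hk2, uninjured week 3 (444.5 CPM) stood above uninjured week 4 (233.0 CPM) without overlap, and culture (20.4 CPM) stood last, below injured week 3 (28.8 CPM), again without overlap. For Hif1a both late injured groups (428.9 and 403.7 CPM, at weeks 4 and 3) stood above all others, which ran from uninjured week 3 (163.2 CPM) to injured week 2 (73.4 CPM) with overlap between each pair of neighbours. For Pgk1 and Ldha culture came first, with 182.5 and 260.0 CPM, followed by injured week 4 and injured week 3. For Gapdh and Pkm injured week 4 came first, with 359.2 and 387.1 CPM, and its libraries overlapped those of culture.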

How the data were processed

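The deposited counts are raw, in 1 table of 32545 rat Ensembl identifiers by 28 libraries, and were not normalized by the authors. Per the labels' protocols, Trizol-isolated RNA was DNase-treated on columns and made into strand-specific total RNA libraries with a kit for very small inputs. Per the submitters' processing notes, STAR 2.5.1, featureCounts 1.5.1, StringTie 1.3.3, Picard, Trim Galore 0.4.1 and FastQC 0.11.5 are listed without their roles, and the build named is GRCm38, a mouse build, although the identifiers are of rat. The sources used here give no strand setting, annotation release or handling of shared and duplicate reads.

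The members and lists were chosen with earlier results of these data known. No identifier matched a symbol (0 of 32545), so the member names are those given with the choice of genes, and the wider pathway lists and cell type markers were not used. Every member is named in the text. Counts were tested with edgeR 4.0.16 in R 4.3.3 (robust quasi-likelihood fit, TMM factors, filterByExpr by group): 27 libraries, a mean for each of 7 groups, 20 residual degrees of freedom, 14282 genes. The fit was tested on simulated data. Alternatives were RLE factors, unscaled totals, no filter, DESeq2 1.42.0, limma voom 3.58.1, all 28 libraries, fits without week 2 or with only the groups compared, and each library left out. The differences of the injury effect of weeks 3 and 4 from that of week 2 were added after seeing the data. Reads carried no stated molecular identifiers, so intervals and floors of counts cover counting error only.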

Additional observations from a re-analysis of the deposited data

Results flagged for a closer look

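Pgk1 in injured week 4 replicate 2, at 168.7 CPM, stood far above the other libraries of its group, at 125.3 to 127.9 CPM. Its gap was 0.94 of the group's range, above Dixon's 95% critical value for 4 libraries. The scaling factor of this library, 0.729, was the lowest of its group, where the others had 0.838 to 0.866. The size of the gap depends in part on that factor. It was 1 of 48 sets of 4 libraries so examined, where chance gives about 2.4 (1 in 20).

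The injury effect differed between weeks by an interaction test in edgeR for 5 members. For week 4 minus week 3 the difference was 1.76 for Slc2a1, 3.69 for Hk2 and 1.18 for Pkm on the log2 scale, and the Pkm call was lost with RLE factors, unscaled totals, no filter on low counts and all 28 libraries. For week 3 minus week 2 it was -4.27 for Slc2a1, -4.00 for Hk2, 2.03 for Pgk1 and 1.78 for Hif1a. For week 4 minus week 2 it was -2.51 for Slc2a1, 1.96 for Pgk1 and 2.14 for Hif1a. With all 28 libraries Slc2a1 also lost its call for week 4 minus week 3 (edgeR adjusted p = 0.125). Pgk1 and Hif1a then lost theirs in both differences from week 2 (edgeR adjusted p from 0.231 to 0.336). Pgk1 for week 4 minus week 2 was also lost with only the groups compared (edgeR adjusted p = 0.055).

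Injured week 3 replicate 3, which was left out of the 27-library fit, had 386.5 CPM of Gapdh and 222.8 CPM of Ldha, above the highest uninjured week 3 library, at 197.97 and 87.4 CPM. Its scaling factor, 1.81, came from scaling all 28 libraries together, with its zeros included.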

How the results depend on the processing

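The counts that follow cover injured against uninjured libraries at each week, and other fold changes only where some setting called them. Fold changes called under no setting were otherwise left out. Of 722 such fold changes recomputed under other settings, 667 kept their direction and side of the threshold, 31 lost the call, 19 gained it and 5 changed sign. Of 2295 with a library left out, 2237 kept both, 27 lost the call, 18 gained it and 13 changed sign. With all 28 libraries, the members called fell to 3 for injured against uninjured at week 4, 0 for injured week 3 against culture, 2, 1 and 1 for the injury effect of week 3 minus week 2, week 4 minus week 2 and week 4 minus week 3, and 1 for uninjured week 3 against week 2. They also fell to 4 for injured against uninjured at week 3, and to 5 over all 7 groups. Against culture they fell to 6 for injured week 2, 2 for injured week 4, 5 for uninjured week 3 and 4 for uninjured week 4. Injured week 4 against week 3 fell to 2, and Pkm lost its call for injured week 3 against week 2. Injured week 3 against culture had 4 called by limma voom, 4 without the week 2 libraries, 5 with only the groups compared, and 1 to 3 with a library left out. Injured week 3 against week 2 had 4 with only the groups compared and 4 to 7 with a library left out. Uninjured week 3 against week 2 had 1 by RLE factors, DESeq2 and only the groups compared, and 1 to 3 with a library left out. Uninjured week 4 against week 3 had 1, Hk2, by DESeq2, limma voom, without the week 2 libraries and with only the groups compared, and 0 to 1 with a library left out. The injury effect of week 4 minus week 2 had 2 to 5 with a library left out. The cause of these changes was not tested.

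Among the fold changes counted above, sign changes touched only members that were not called. Other comparisons in which no setting called a member were not examined for sign changes. Hk2 at week 2 was at -0.19 by limma voom and -0.026 with only the groups compared, and ran from -0.25 to 0.29 with a library left out. With a library left out, week 2 values ran from -0.19 to 0.40 for Gapdh, -0.089 to 0.58 for Pkm and -0.058 to 0.55 for Slc2a1. Pkm at week 3 was at -0.25 with all 28 libraries, -0.011 without week 2 and -0.0084 with only the groups compared, and ran from -0.023 to 0.45 with a library left out. RLE factors moved the median over all genes by 0.25 for injured against uninjured at week 3, and unscaled totals by -0.21 at week 4. No paired analysis was possible because replicate numbers follow only the order of deposition. Depth limits week 2, where members had 0 to 209 counts in a library.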
